A study of Mus musculus with 16 samples.

Results

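Among the accessible chromatin regions of mouse embryonic stem (ES) cells, those that consist mostly of repeated sequence were examined. A region belonged to the set when it lay on an autosome and at least 80% of its bases were lower case in the soft-masked GRCm38 genome sequence, the assembly that mm10 denotes. Of the 81132 regions in the merged list, 79278 lay on autosomes and 4364 of these (5.50%) were mostly repeat. They were compared with the 20936 autosomal regions (26.4%) that held no lower-case base, referred to as repeat-free regions. Lower case marks bases that a masking program took for repeats, and the sequence files give no family for them. The program is not known here, and another masking could give other sets.

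The regions came from ATAC-seq, which inserts sequencing adapters into open chromatin with the Tn5 transposase. SBROS cells are a knock-in line of the CGR8 background that also carries reporters of Sox1 and Brachyury. Both alleles of endogenous SOX2 are fused to a SNAP-tag, and a single allele of endogenous OCT4 to a HALO-tag. The cells were grown in serum with LIF, CHIR99021 and PD184352, stained for both tags and for DNA, and sorted in G1 phase. Sorting by both tags gave 4 populations of 3 replicates, 12 libraries in all. SHOH and SHOL cells were high in SOX2 and high or low in OCT4, and SLOH and SLOL cells were low in SOX2 and high or low in OCT4. The list pools the peaks of all of them and gives neither a level nor a library, so the depth behind a region is unknown and the populations could not be compared. Another 4 samples, from ChIP-seq, were not analysed here.

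Most repeats in the mouse genome descend from transposable elements. LINE-1 elements carry their own promoter, which in mice is an array of tandem units called monomers, followed by open reading frames for the proteins of retrotransposition. SINEs such as B1 and B2 are short and depend on LINE-1 proteins, and the long terminal repeats (LTRs) of endogenous retroviruses hold binding sites for transcription factors, OCT4 and SOX2 among them. ES cells keep most of these elements silent with DNA methylation, histone methylation and zinc finger proteins.

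Aligning the mostly repeat regions with each other showed that many were copies of the same few sequences. The regions that represent the groups described below were as follows. Each line gives the sequence 5′ to 3′, at most 300 bases around the centre of the region, read from GRCm38. Capitals mark the motif by which a group stood out, on either strand, AAGATGGC of YY1 in group 1, CCATTGT of SOX factors in groups 3 and 7 and the octamer ATGCAAAT of OCT factors in group 12. In groups 2 and 4 and at Zfp42 no motif is marked. Apart from the Zfp42 region, shown as that of a listed gene, each is the member of its group with the most alignments to others, among those that held the marked motif, if any, and in groups 1 and 2 among those with an open frame downstream.
Group 1: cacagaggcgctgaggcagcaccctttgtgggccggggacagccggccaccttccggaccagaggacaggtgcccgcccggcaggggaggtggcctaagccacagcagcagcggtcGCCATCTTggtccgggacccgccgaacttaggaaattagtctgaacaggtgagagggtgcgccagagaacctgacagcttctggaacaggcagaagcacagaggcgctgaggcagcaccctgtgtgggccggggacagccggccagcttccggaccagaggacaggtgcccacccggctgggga
Group 2: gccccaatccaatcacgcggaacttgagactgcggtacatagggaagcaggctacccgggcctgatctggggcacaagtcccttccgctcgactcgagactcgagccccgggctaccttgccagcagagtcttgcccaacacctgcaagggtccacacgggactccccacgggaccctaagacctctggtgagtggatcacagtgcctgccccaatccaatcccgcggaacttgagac
Group 3: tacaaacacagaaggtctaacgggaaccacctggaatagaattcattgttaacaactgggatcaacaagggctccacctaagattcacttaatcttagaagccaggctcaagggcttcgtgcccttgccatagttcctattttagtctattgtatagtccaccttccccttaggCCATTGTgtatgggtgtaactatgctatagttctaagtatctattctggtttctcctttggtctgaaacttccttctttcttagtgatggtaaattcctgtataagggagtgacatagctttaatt
Group 7: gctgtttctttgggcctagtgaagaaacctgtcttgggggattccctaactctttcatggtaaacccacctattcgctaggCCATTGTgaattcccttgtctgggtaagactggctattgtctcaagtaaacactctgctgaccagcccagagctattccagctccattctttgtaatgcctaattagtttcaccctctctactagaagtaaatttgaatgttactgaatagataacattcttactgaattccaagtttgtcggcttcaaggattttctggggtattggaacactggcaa
Group 4: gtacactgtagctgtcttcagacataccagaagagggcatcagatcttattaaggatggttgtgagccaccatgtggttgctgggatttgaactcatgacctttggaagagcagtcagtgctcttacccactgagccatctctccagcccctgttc
Group 12: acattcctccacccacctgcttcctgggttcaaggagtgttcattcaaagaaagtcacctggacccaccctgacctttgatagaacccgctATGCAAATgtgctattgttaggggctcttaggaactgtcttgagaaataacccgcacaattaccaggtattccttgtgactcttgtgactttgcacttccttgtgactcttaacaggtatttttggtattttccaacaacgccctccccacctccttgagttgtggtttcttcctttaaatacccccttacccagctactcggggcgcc
Zfp42: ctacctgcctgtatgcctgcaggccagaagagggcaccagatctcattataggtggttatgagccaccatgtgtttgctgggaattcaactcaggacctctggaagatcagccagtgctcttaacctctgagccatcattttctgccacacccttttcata
The group 1 window lay at chr11:13379202-13379501 on the plus strand and the group 2 region at chr17:42006744-42006981 on the minus strand, both read towards a long open frame. The windows of groups 3, 7 and 12 lay at chr15:9840123-9840422 (plus strand), chr10:17820671-17820970 (plus strand) and chr7:114573842-114574141 (minus strand). The regions of groups 1, 2, 3 and 12 were intergenic and that of group 7 intronic, with the closest transcription start site (TSS) at Gm12004 (381686 bp), Ptchd4 (309084 bp), Spef2 (91405 bp), Cyp2r1 (11020 bp) and Gm7584 (3442 bp). The group 4 region lay in an intron of Klhl20 at chr1:161094198-161094353 (plus strand), and the region closest to Zfp42 in intergenic sequence at chr8:43257711-43257871 (minus strand, that of the gene).

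Repeat tiles overlapped a region of the list less often than repeat-free tiles. Of 7986009 gap-free tiles of 300 bp on the autosomes, 1132932 (14.2%) were at least 80% lower case, and 0.891% of these overlapped an accessible region (95% Wilson interval 0.873 to 0.908%). A nearly equal number of tiles, 1133001, had no lower-case base, and 4.77% of them overlapped a region (4.73 to 4.81%), 5.36 times the share of the repeat tiles. Of the closed repeat tiles examined, 18.1% held no 75-base word that occurs once in the assembly, and closed tiles and tiles that reads could not be placed in cannot be told apart. The tiles and regions are not replicates, so that intervals here and below cover counting error only.

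The lower-case share had no gap at 80%, but it had a peak at its upper end. There were 1796 regions from 70 to under 80%, 1609 from 80 to under 90%, 1465 from 90 to under 100% and 1290 that were lower case throughout. The members closest to the threshold, at exactly 80%, were regions of 145 bp near Rp1 and of 720 bp near Gm37210. Just outside it lay regions of 899 bp near Gm35386 and of 454 bp near Gm46349, at 79.98 and 79.96%. From 80 to under 82.5% lower case, 62.6% of 460 regions were intergenic, and from 77.5 to under 80%, 61.6% of 432.

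**Figure D1:**
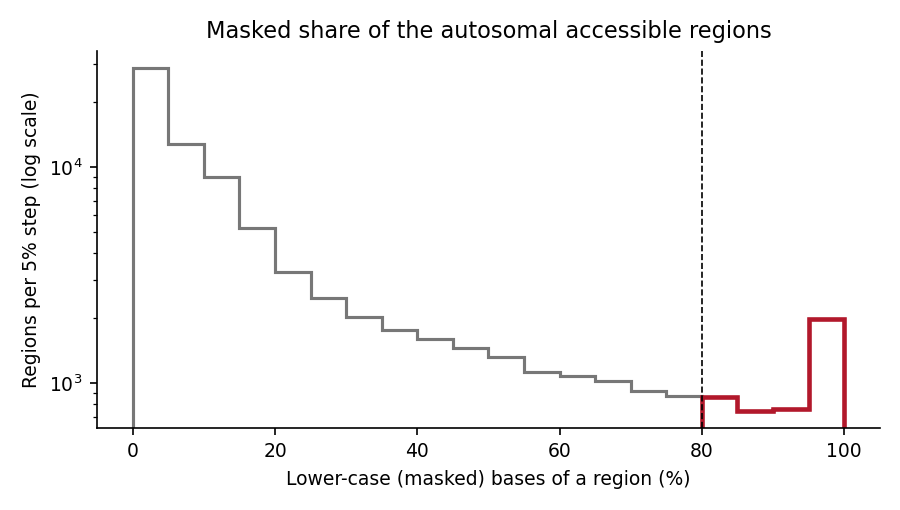
Number of autosomal regions (log axis) in each 5% step of lower-case bases, with the 80% threshold dashed and the mostly repeat regions in red. The counts fall towards the threshold and rise again in the last step, which holds the 1290 regions that are lower case throughout.

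The mostly repeat regions lay in repeat-rich surroundings and were, on average, richer in G and C than these, although groups 3, 7 and 11 described below were not rich in G and C. Their median width was 272 bp (quartiles 186 and 448 bp), against 265 bp (183 and 413 bp) for repeat-free regions. In the 500 bp on both sides, a median of 62.8% of bases was lower case, against 15.1% around repeat-free regions and 33.5% over the autosomes. The rule set the share inside the regions, and lower-case runs can go on past their ends, with a median run of 350 bp. The contrast in the 500 bp therefore follows in part from the rule. Averaged over all 4364 regions, the lower-case share fell from 93.3% in the 100 bp left of the centre to 50.3% at the far end of the 2000 bp flank, still above the autosomal level. The value at the centre was set by the rule. The share of G or C fell over the same distance from 51.7 to 40.4%. Around repeat-free regions it fell from 55.2 to 46.1%. The median GC content of a region was 50.6% in mostly repeat and 54.2% in repeat-free regions, with 1.38 and 2.33 CpG per 100 bp.

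**Figure D2:**
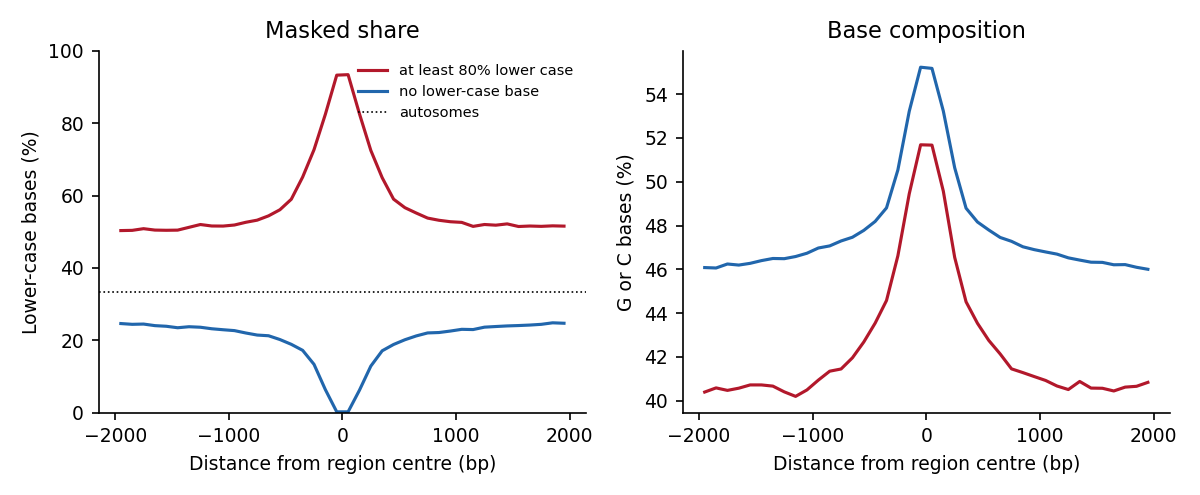
Mean share of lower-case bases (left) and of G or C bases (right) in 100-bp steps from the region centre, for 4364 mostly repeat (red) and 20936 repeat-free regions (blue), with the autosomal share dotted. Both sets have a GC peak at the centre, and the mostly repeat regions stay above the autosomal lower-case share out to 2000 bp. The lower-case shares at the centre were set by the rule.

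Mostly repeat regions were more distal than repeat-free regions, but not than repeat tiles in general. Of the mostly repeat regions, 116 (2.66%) were centred in a promoter, taken as the 1000 bp before a TSS and the first 100 bp after it, against 4742 repeat-free regions (22.7%). The difference was -20.0 percentage points (95% Newcombe interval -20.7 to -19.2, adjusted p = 8.28e-279 by two-sided Fisher's exact test with Benjamini-Hochberg adjustment over 7 shares). Intergenic sequence held 2793 of them (64.0%) and 5948 repeat-free regions (28.4%), a difference of 35.6 points (34.03 to 37.1), with a p-value in the exact test too small to be represented. Introns held 1396 (31.99%) and exons 59 (1.35%). Of all repeat tiles, open or not, 68.8% were intergenic, 29.1% intronic and 1.30% in promoters. Set against these tiles, with no test, the members lay more often in promoters and less often in intergenic sequence.

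The distances to genes and to other regions were also longer than in repeat-free regions. The median distance to a TSS was 16907.5 bp in mostly repeat against 4694.5 bp in repeat-free regions, and 983 (22.5%) against 1470 (7.02%) lay over 50000 bp from any TSS, a difference of 15.5 points (14.2 to 16.8, adjusted p = 1.86e-177, Fisher's exact test). No other region lay within 5000 bp, centre to centre, of 3062 mostly repeat regions (70.2%), against 10049 repeat-free regions (48.0%), a difference of 22.2 points (20.6 to 23.7, adjusted p = 2.05e-160, Fisher's exact test). Widths under 200 bp were found in 30.1% and 31.5%, and this difference of -1.35 points (-2.83 to 0.165) did not pass the threshold (adjusted p = 0.0816, Fisher's exact test) and turned to 4.41 among regions that were lower case throughout. Among regions of 40 to 50% GC only, the differences shrank to -3.45 points in promoters, 18.9 in intergenic sequence, 4.74 over 50000 bp from a TSS and 7.06 without a close region, all in the same direction and past the threshold. Many members are copies of related sequences, and the tests treat them as independent.

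**Figure D3:**
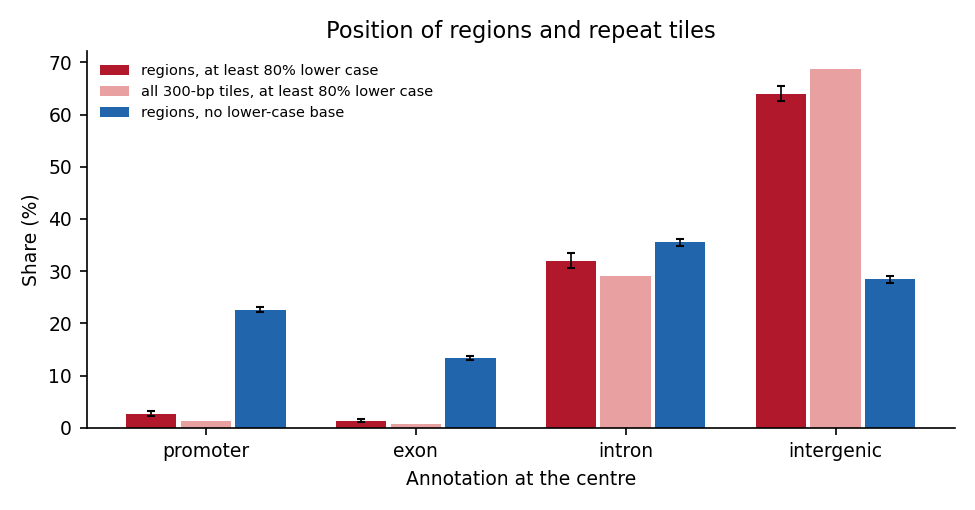
Share of mostly repeat regions (dark red), of all repeat tiles of 300 bp (light red) and of repeat-free regions (blue) by the annotation at the centre, with 95% Wilson intervals for the regions. The mostly repeat regions lie nearer to the repeat tiles than to the repeat-free regions, with 64.0% intergenic and 2.66% in promoters.

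By chromosome, the members made up from 2.67% (chromosome 19) to 7.26% (chromosome 3) of the regions. Chromosome 6 held the most, 465, which was 3.18 per Mb, while the other autosomes held between 0.911 and 2.18 per Mb. Per 1000 repeat tiles, chromosome 6 had 6.52 members and chromosome 5, the next, 4.61. As a share of its regions, 7.05% of those on chromosome 6 were mostly repeat (95% Wilson interval 6.46 to 7.69%), which overlapped the interval of chromosome 3 (6.53 to 8.07%).

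The study kept only reads with a single place in the genome, which limits what can be seen in repeats that are alike. The share of 75-base words of a region that occur once in the assembly was counted, 75 bases being the read length. The median was 91.1% in mostly repeat regions (quartiles 61.1 and 100%) and 100% in repeat-free regions. In closed repeat tiles, those with no accessible region, of which every 100th was examined, it was 74.8% (quartiles 19.9 and 99.1%). No word was unique in 63 of the 4364 mostly repeat regions (1.44%, 95% Wilson interval 1.13 to 1.84%) and in 2028 of 11229 closed repeat tiles (18.1%, 17.4 to 18.8%). Among the 1290 regions that were lower case throughout, the median was 56.2%. A read pair can be placed by a unique mate, so that a region without a unique word can still receive reads.

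**Figure D4:**
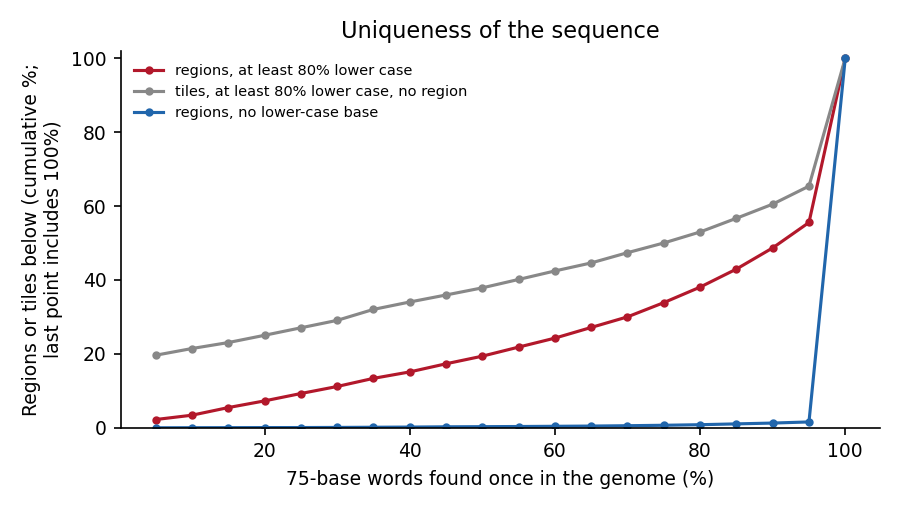
Cumulative share of mostly repeat regions (red), closed repeat tiles (grey) and repeat-free regions (blue) below a given share of 75-base words that occur once in the genome. The mostly repeat regions lie between the other sets, with medians of 91.1, 74.8 and 100%.

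Nearly all members had a relative among the others. With an alignment of at least 80% identity over at least 50% of the shorter region, 4169 of the 4364 (95.5%) fell into 18 groups, but 4048 of them were chained into 1 group, and the next had 67. A stricter rule was added after these counts were seen, namely 80% identity over at least 80% of the longer region. It placed 2673 members (61.3%) in 165 groups, numbered here by size, of which the 12 largest held between 36 and 812 regions. These groups were formed from the sequences and described without tests.

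Groups 1 and 2, with 812 and 367 regions, held tandem units and open frames, the parts of LINE-1 elements, more often than members outside the 12 groups. They were rich in G and C, with medians of 63.1 and 62.0% and with 5.37 and 5.32 CpG per 100 bp, and lay in long lower-case runs with a median of 6470 and 6430 bp. A match of a region with itself at a shift of 100 to 400 bases, with at least 70% equal bases, was looked for in regions of at least 300 bp. It was found in 314 of 453 such regions of group 1 (69.3%, 95% Wilson interval 64.9 to 73.4%), with a median shift of 212 bases, and in 125 of 187 of group 2 (66.8%, 59.8 to 73.2%), with a median of 208 bases. In group 9 it was found in 12 of 22 (54.5%, 34.7 to 73.1%). Outside the 12 groups it was found in 25 of 746 (3.35%, 2.28 to 4.90%) and in repeat-free regions in 14 of 8864 (0.158%, 0.0941 to 0.265%). In the group 1 region printed above, 95.8% of bases were equal at a shift of 212. An open frame, at least 3000 bases without a stop codon within 8000 bp of the centre, was found at 360 group 1 regions (44.3%, 95% Wilson interval 41.0 to 47.8%) and 158 group 2 regions (43.1%, 38.1 to 48.2%). Of every 10th repeat-free region, 31 of 2094 had such a frame (1.48%, 1.04 to 2.09%), and of members outside the 12 largest groups 144 of 2197 (6.55%, 5.59 to 7.67%). In 351 of the 360 and 156 of the 158, the frame began downstream of the centre in its reading direction, at a median of 1773 and 1822 bp. Among the regions of at least 300 bp, both a shift match and a frame downstream were found in 151 of group 1 (33.3%, 29.1 to 37.8%) and 57 of group 2 (30.5%, 24.3 to 37.4%), and neither in 91 and 51.

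The open frame had a median length of 3900 bases in both groups. No repeat library was used, and the groups carry no family name for that reason. Together they made up 696 of the 1290 members that were lower case throughout (54.0%, 95% Wilson interval 51.2 to 56.7%), but 139 of the 1609 from 80 to under 90% (8.64%, 7.36 to 10.1%). Among regions in lower-case runs of at least 2000 bp, 1054 of 1117 (94.4%) were centred in the outer 20% at either end of the run. Groups 1 and 2 had the least unique sequence of the 12 groups, with a median of 44.1% of 75-base words found once in group 1 and 43.2% in group 2.

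The pair differed in the motif of YY1, a zinc finger protein that binds LINE-1 promoters. Of the group 1 windows, 601 of 812 (74.0%, 95% Wilson interval 70.9 to 76.9%) held AAGATGGC on either strand, and of the group 2 windows 0 of 367, which allows a share of up to 0.817% (3 counts). Where an open frame lay downstream, the motif was found only on the opposite strand to the frame in 285 of 351 group 1 regions, only on the same strand in 2 and not at all in 64. Group 1 accounted for 73.6% of the 817 mostly repeat windows with the YY1 motif. Without it, 216 of 3552 members (6.08%, 5.34 to 6.92%) held the motif, against 429 of 20936 repeat-free windows (2.05%, 1.87 to 2.25%) and 7.38% of closed repeat tiles.

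Groups 3, 7 and 11 were poor in G and C and carried the SOX motif. Their median GC content was 42.1, 41.5 and 41.4%, and their lower-case runs had medians of 422, 224.5 and 265 bp, against 350 bp over all members. In group 3, 252 of 313 windows (80.5%, 95% Wilson interval 75.8 to 84.5%) held CCATTGT or CCTTTGT, in group 7, 70 of 88 (79.5%, 69.97 to 86.7%), and in group 11, 18 of 43 (41.9%, 28.4 to 56.7%). Group 11 regions were the widest of the 12 groups, with a median of 781 bp, and the 300-bp window left out much of them. Intergenic sequence held 74.4% of group 3 and 62.8% of group 11. The YY1 motif was found in 0, 1 and 0 of their windows and the OCT octamer in none of the 444.

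Group 12, of 36 regions, was the group of the OCT octamer. ATGCAAAT was present in 30 of 36 windows (83.3%, 95% Wilson interval 68.1 to 92.1%). All 36 aligned with LTRIS4, a retrotransposon LTR that RefSeq annotates at chr17:34825295-34825783 (GRCm38), with at least 70% identity over at least 60 bases. In all, 56 members aligned with it, and 40 of the 56 (71.4%, 58.5 to 81.6%) held the octamer. In group 12, 5 windows held a SOX motif.

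Group 4 held narrow regions. Its 135 regions had a median width of 162 bp, the lowest of the 12 groups, and a lower-case run of 210 bp, and 56.3% were intronic, the highest intronic share of the 12 groups after group 9 (57.1%). Their median distance to a TSS was 5836 bp, the shortest of the 12 groups. Their sequence was nearly always unique, with a median of 100% of words found once. The central member, in Klhl20, aligned with 375 other members under the looser rule. SINE B1_Mus2, which RefSeq annotates at chr7:103823699-103823836, matched 158 members (3.62%), and 152 of the 158 lay outside the 12 largest groups. A tRNA gene was overlapped by 0 of 4364 mostly repeat regions, which allows a share of up to 0.0687%, the limit used here for a count of 0. Of the 20936 repeat-free regions, 24 overlapped one (0.115%). Both shares were small, and the difference was not tested.

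Groups 5, 6, 8, 9 and 10 differed in base composition, width and place. Group 9 was nearly confined to chromosome 5, with 49 of its 56 regions there and 7 on chromosome 7, and had the highest median GC content, 64.6%, with 1.18 CpG per 100 bp. Group 6, of 95 regions with a median width of 590 bp, held none of the SOX, OCT and YY1 motifs. In group 8, 39 of 72 windows (54.2%) held the TATA box TATAAA, against 12.6% of all members. Group 5, of 104 regions, had 50.0% GC and the fewest CpG, 0.412 per 100 bp, and group 10, of 46 regions, had 3.11 CpG per 100 bp at 53.6% GC.

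Genomic copies of the groups differed widely in how often they were open. The central member of each group was aligned with the autosomes, and an alignment of at least 80% identity over at least 50% of its length counted as a copy. Overlapping alignments were joined into 1 copy, so that a tandem array could form a single long copy. In group 2 the central member was not the region printed above. The central members were chosen among open regions, so that the shares are descriptions. Of 3588 copies of group 1, 1261 (35.1%, 95% Wilson interval 33.6 to 36.7%) overlapped an accessible region, and of 3722 copies of group 2, 471 (12.7%, 11.6 to 13.8%). Group 3 had 324 open of 984 copies (32.9%), group 7 had 204 of 412 (49.5%) and group 6 had 157 of 233 (67.4%, 61.1 to 73.1%), the highest share. Group 4 was the most abundant, with 94662 copies, of which 1880 (1.99%, 1.90 to 2.08%) were open, the lowest share. A copy was called open when it overlapped any region of the list, mostly repeat or not. A mostly repeat region was overlapped by 816 of the 1261 open copies in group 1, 375 of 471 in group 2 and 297 of 324 in group 3. In groups 4, 6 and 7 this held for 521 of 1880, 112 of 157 and 106 of 204.

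Copies with much unique sequence were also examined alone. When only copies with at least 90% unique words were kept, 37 of 200 in group 1 were open (18.5%, 95% Wilson interval 13.7 to 24.5%), 35 of 426 in group 2 (8.22%, 5.97 to 11.2%), 44 of 235 in group 3 (18.7%, 14.3 to 24.2%), 93 of 131 in group 6 (70.99%, 62.7 to 78.1%), 150 of 295 in group 7 (50.8%) and 1251 of 54815 in group 4 (2.28%). Motifs were searched over the whole copy, so these shares cannot be set beside those of the 300-bp windows. Among the copies of group 12, 120 of 949 were open (12.6%), and 104 of these (86.7%, 79.4 to 91.6%) held the octamer, against 550 of the 829 closed copies (66.3%, 63.1 to 69.5%). The SOX motif was present in 90.4% of open and 84.8% of closed copies of group 3 (86.7 to 93.2% and 81.9 to 87.4%). In group 7 it was present in 79.4% and 69.7% (73.3 to 84.4% and 63.2 to 75.6%), and in group 11 in 83.8% and 86.1% (73.3 to 90.7% and 78.1 to 91.6%). The intervals of open and closed copies overlapped in all 3 of these groups. In group 1, the SOX motif was present in 439 of 1261 open copies (34.8%, 32.2 to 37.5%) and 557 of 2327 closed copies (23.9%, 22.2 to 25.7%), and these intervals did not overlap. The YY1 motif was present in 93.3% of open and 85.1% of closed copies of group 1. Open copies were longer in group 1, with a median of 570 against 480 bases, and in group 3, with 587 against 478, and the part of length in these differences was not tested. In group 12 the medians were 343 and 348 bases.

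**Figure D5:**
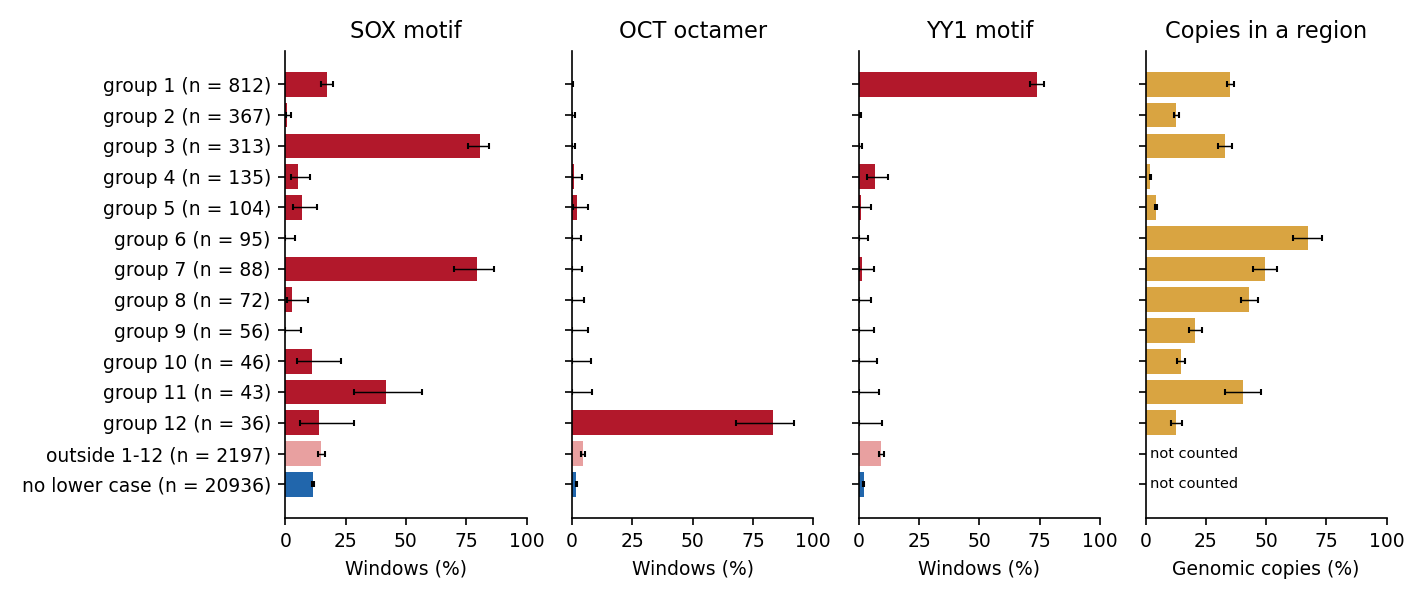
Share of 300-bp windows with the SOX motif, the OCT octamer and the YY1 motif in groups 1 to 12, in members outside them and in repeat-free regions, and share of the genomic copies of each group that overlap a region (right), all with 95% Wilson intervals. The SOX motif stands out in groups 3 and 7, the octamer in group 12 and the YY1 motif in group 1.

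Over all members, the motifs of the sorted factors were more frequent than in repeat-free regions. The octamer was present in 131 of the 300-bp windows (3.00%) and in 384 repeat-free windows (1.83%), a difference of 1.17 points (95% Newcombe interval 0.664 to 1.74, adjusted p = 2.54e-06, Fisher's exact test). Among regions that were lower case throughout, the difference was 0.724 points and did not pass the threshold (-0.0314 to 1.75, adjusted p = 0.0816, Fisher's exact test). The SOX motif was present in 834 (19.1%) and 2427 (11.6%), a difference of 7.52 points (6.30 to 8.79, adjusted p = 6.96e-38, Fisher's exact test). Closed repeat tiles held the octamer more often than the members did, in 4.88%, and the SOX motif less often, in 14.4%. Groups 3, 7 and 11 supplied 340 of the 834 windows with the SOX motif. Without them the share was 12.6% (494 of 3920), 1.01 points above repeat-free regions (-0.0855 to 2.17). These groups were left out because they held the motif, so the share had to fall. Outside the 12 largest groups it was 14.8% (326 of 2197, 95% Wilson interval 13.4 to 16.4%). In group 1 it was 17.1% (139 of 812, 14.7 to 19.9%), but in group 2 it was 0.817% and in group 6 no window held the motif. Without group 12, left out for the same reason, the octamer was present in 2.33% (101 of 4328), 0.499 points above (0.0479 to 1.02). Outside the 12 largest groups it was present in 98 of 2197 (4.46%, 95% Wilson interval 3.67 to 5.41%). Both motifs were present in 19 members (0.435%) and 55 repeat-free windows (0.263%). The composite of CATTGT, 1 base and ATGCAAAT, which SOX2 and OCT4 bind together, was found in 0 of 4364 members, which allows a share of up to 0.0687% (3 counts), and in 2 repeat-free windows.

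Motifs of several other factors were less frequent in the members than in repeat-free regions. The CTCF motif, that of the insulator protein, was present in 43 windows (0.985%, 95% Wilson interval 0.732 to 1.32%) against 1866 repeat-free windows (8.91%, 8.53 to 9.31%), and in 0.164% of closed repeat tiles. KLF factors bind CCCCACCC, found in 2.02% and 6.68%, and in 2.45% of closed repeat tiles. ETS factors bind CCGGAAGT, found in 6 windows (0.137%) and in 403 (1.92%), and in 0.0546% of closed repeat tiles. The CREB motif TGACGTCA was present in 0 of 4364 members, with the same limit as above, in 173 repeat-free windows (0.826%) and in 0.192% of closed repeat tiles, and NRF1's GCATGCGC in 11 (0.252%), 325 (1.55%) and 0.247%. ESRRB's TCAAGGTCA was present in 1.12% (0.850 to 1.48%) and 1.28% (1.14 to 1.45%), with overlapping intervals, and in 0.308% of closed repeat tiles. In members, repeat-free regions and closed repeat tiles, values for AP-1 (TGACTCA or TGAGTCA) were 4.86, 5.78 and 1.46%, for NFY (CCAATCA) 5.02, 4.64 and 5.65%, for the TATA box 12.6, 7.74 and 28.6% and for the Pol III B box (GGTTCGA) 0.962, 0.860 and 0.642%. A match is a run of letters in the window and not evidence of binding.

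The closest genes of the members were spread over many loci. No protein-coding gene had more than 5 members at its closest TSS. Ndufa4, which encodes a subunit of the respiratory chain, had 5, all intergenic on chromosome 6 and from 157647 to 456188 bp away. Gm12794, Ppp1r3a, Ptchd4 and Vmn1r29 had 4 each and Agpat5, Auts2 and Dnah8 had 3 each. All 4 regions that had Ppp1r3a as their closest gene were mostly repeat, as were all 4 at Gm12794, whereas Auts2, a gene of neural development, had 3 of 21, all in introns. The closest TSS belonged to a protein-coding gene for 1638 members (37.5%), against 65.4% of repeat-free regions, and to a processed pseudogene for 1166 (26.7%, against 8.64%).

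A protein-coding TSS lay inside 9 members. Those of Fkbp5, a co-chaperone of steroid receptors, and Top2a, DNA topoisomerase II alpha, were lower case throughout. The others were Zfp229 and Zkscan5, zinc finger genes, Olfr1033, an olfactory receptor gene, Rmdn2, Cpeb3, an RNA-binding protein gene, Qtrt2 and Xpa, a DNA repair gene, with lower-case shares of 84.1 to 97.6%. The Top2a region of 197 bp aligned with the central group 4 member over 145 bases at 89.0% identity, and the regions at Fkbp5 and Rmdn2 also aligned with it under the looser rule. Of the words in the Top2a region, 46.3% occurred once in the genome, and of those in the Xpa, Cpeb3 and Qtrt2 regions 100%.

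The widest members were 5 regions of 1590 to 2031 bp. The widest, of 2031 bp and 63.7% GC at chr15:103410535-103412565, lay in an intron of Gtsf1, 16950 bp from its TSS, a gene that is needed to silence retrotransposons in male germ cells. It held the YY1 motif in its central window, as did the regions near AC138084.1, Gm14641 and Gm28449, and the regions near Gm28449 and Dync1i2 held the SOX motif. From 7.00 to 34.8% of their words were unique. Under the looser rule, the central members of the 6 largest groups were closest to Olfr215, Myl10, Gm48643, Gm21190, Gm30414 and Gm16076.

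Members were closest to genes of pluripotency or of repeat silencing about as often as repeat-free regions were. Of 19 pluripotency factors in the annotation, 4 had 1 member each. The Esrrb region of 313 bp lay in an intron 14153 bp from the TSS of this nuclear receptor gene, and all of its words were unique. The Sall4 region of 191 bp and the Dppa3 region of 674 bp were intergenic, 18443 and 14050 bp away, with 100 and 84.5% unique words. The Zfp42 region of 161 bp, printed above, lay 49145 bp from the gene, a marker of naive ES cells also known as Rex1, and belonged to group 4. It aligned with the group's central member over 114 bases at 86.8% identity. None of these held the octamer or the SOX motif in its window. The 4 members were 0.0917% of all members (95% Wilson interval 0.0357 to 0.235%), and 20 repeat-free regions at 14 of the genes were 0.0955% (0.0619 to 0.148%).

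Of 20 annotated genes that silence repeats, Kdm1a, a histone demethylase, had 1 member in an intron 2326 bp away, and Smarcad1, a chromatin remodeller that restrains endogenous retroviruses, had 3. The Smarcad1 regions lay on chromosome 6 at distances of 24835, 11207 and 803 bp, the last of them in a promoter and 95.6% lower case. Together they were 0.0917% of members, against 0.0908% of repeat-free regions. Of 13 genes of the 2-cell-like state, 1 had a member, Dppa2, with an intronic region of 465 bp that lay 1384 bp from its TSS. Genes named Zfp with a number had 33 members at 29 genes (0.756%, 0.539 to 1.06%) and 217 repeat-free regions at 142 genes (1.04%, 0.908 to 1.18%), with overlapping intervals.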

How the data were processed

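Reads of the 12 ATAC-seq libraries were aligned by the authors to mm10 with STAR (2.5.3a, unique hits only), duplicates were removed with Picard, and peaks were found per library on whole fragments with MACS2 (2.1.1.20160309), merged with BEDOPS and cleared of peaks of a ChIP-seq input. No shift of read ends for Tn5 is named. The deposited list gives the chromosome and the start and end positions. The paper states a range of reads sequenced per sample, but the depth behind each region of the list is unknown. Labels call the replicates of a population separate samples, but no value per library was used.

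The members, gene lists and tests were chosen with earlier results of these data known. Lower case was read from the RefSeq copy of GRCm38; the masking program is not given in the sources used here, and the number of mostly repeat regions holds for this masking only. Regions took the class at their centre from GENCODE (M21), promoter before exon, intron and intergenic, and the gene of the closest TSS. Motifs were searched on both strands in the 300 bp around the centre, and CTCF by its consensus. Genomic copies, and the regions where the strand of the YY1 motif was set against the frame, were searched over their whole length. Words were counted on both strands of the primary assembly. Members were aligned with blastn (2.17.0+, e-value up to 1e-10, no low-complexity filter), and groups were connected components in networkx (3.6.1). Short tandem repeats made up at least 50% of 6 members. Shares have 95% Wilson intervals, and a count of 0 has a limit of 3 counts. The 7 tests are Fisher's exact tests in scipy (1.17.1) with Python (3.11.15), numpy (2.4.6) and pandas (2.3.3), and plots were drawn with matplotlib (3.10.9). Word counts, motif scan and share test were first tested on simulated data.

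Genes were named by a rule: the 10 protein-coding genes with the most members (some are not reported here), protein-coding genes with a TSS inside a member (at most 15), the closest genes of the 5 widest members, of the central members of the 6 largest groups and of members with the composite motif, and all listed genes with a member. Alternatives were other lower-case thresholds, comparison sets, widths, GC ranges, annotations, word lengths and alignment rules. Of these alternatives, only the rule on the longer region was added after the data were seen. All counts by the 12 groups, their frames, shifts, motifs and genomic copies, rest on that rule.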

Additional observations from a re-analysis of the deposited data

How the results depend on the processing

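No paired analysis was possible because the deposited list holds no value per library, although the labels give the populations the same replicate numbers. For the same reason no library could be left out. Of 81 alternatives to 11 results, 64 kept the direction and the side of the threshold, or stayed within 1.5 times or the interval of the value. The differences between mostly repeat and repeat-free regions in promoters, in intergenic sequence, far from a TSS, without a close region and in the SOX motif kept both under all their alternatives, but not their size. With 40 to 50% GC, the promoter difference was -3.45 points, the intergenic one 18.9, that over 50000 bp from a TSS 4.74 and that without a close region 7.06. With protein-coding genes only, the difference over 50000 bp was 30.8 points, and with widths of 200 to 400 bp the promoter difference was -13.3. The SOX difference ranged from 3.97 to 13.01 points. The octamer's difference lost significance when only regions that were lower case throughout were kept, at 0.724 points (adjusted p = 0.0816, Fisher's exact test, adjusted with the p-values of the other 6 shares, the largest of which it takes), and it ranged from 0.421 to 3.06 points.

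The share of regions under 200 bp depended on the choices. Its difference of -1.35 points became -4.49 with a threshold of 50% lower case and -9.04 with 40 to 50% GC, both past the threshold, and it turned to 4.41 with 100% lower case and to 10.9 against all other autosomal regions. The cause was not tested. The number of mostly repeat regions was 10731, 2755 and 1290 with thresholds of 50, 90 and 100%. At these thresholds the median share of unique 75-base words was 99.8, 79.9 and 56.2% and the median GC content 48.5, 52.6 and 60.7%. With words of 36 and 50 bases, 43.6 and 65.2% were unique. The rule on the longer region, chosen after seeing the data, left 2673 regions in groups.

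The list has no depth, level or library, so that a region in 1 library and a region in all of them count alike. Regions are not replicates, many are copies of each other, and intervals cover counting error only. Reads could not be placed in repeats without unique sequence nearby.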
